A study of Mus musculus with 11 samples.

Results

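A set of 10 genes of the response to low oxygen were followed in the host cells of human melanoma xenografts: the oxygen sensors Egln3 and Egln1, and the hypoxia-induced genes Adm, Angptl4, Ndrg1, Ddit4, Ankrd37, Pdk1, Bnip3 and Car9. They were chosen by gene symbol, and a probe was kept where its detection p was under 0.05 on at least 1 array. Of 19 probes with such a symbol, 12 were kept, and they covered 9 of the 10 genes. Bnip3 (BCL2 interacting protein 3, a mitochondrial protein that promotes mitophagy) had 1 probe, and none of the 11 arrays detected it. Among all 45281 probes of the array, 19392 were detected on at least 1 array, and 10933 named genes were tested.

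The tumors were grown from A375, a human melanoma cell line with mutant BRAF, in the flank of CD1 female athymic mice, which lack a normal T cell compartment and were 6 weeks old at implantation. Treatment began once tumors reached 150 to 200 mm3, after about 20 days, and lasted 12 days per the labels. Vehicle mice received methylcellulose (3 arrays). PLX4720, which blocks the mutant BRAF kinase, was gavaged every day at 60 mg/kg (3 arrays). Bevacizumab, an antibody against VEGF-A, was injected intraperitoneally at 10 mg/kg 3 times a week (3 arrays). COMBO mice received both drugs (2 arrays). Every group therefore shared the A375 graft and the athymic host, and the arrays of a group are biological replicates. Total RNA of the whole tumor was hybridized to a mouse bead array, so that the values are read for the host cells, although human RNA was present in the same sample and its binding to mouse probes was not tested. Of the markers of host cell types, 14 of 15 endothelial, 10 of 11 macrophage and 9 of 10 fibroblast genes were detected.

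Cells sense oxygen through prolyl hydroxylases of the Egln family, which use oxygen to hydroxylate the alpha subunits of hypoxia-inducible factor (HIF). The hydroxylated subunit is bound by the von Hippel-Lindau protein and degraded, whereas at low oxygen it persists, pairs with Arnt and binds short DNA elements with the core ACGTG or GCGTG. Many genes switched on in this way serve glycolysis, vessel growth, pH control and growth restraint, and Egln3 and Egln1 are themselves among the targets, which makes a feedback loop. In solid tumors the pathway is known for its activity in poorly perfused regions.

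Promoters are shown for 2 members that passed as lower with PLX4720 (Egln3 and Ankrd37) and for 2 that did not pass. These are Adm, whose PLX4720 and vehicle arrays did not overlap after normalization, and Ddit4, whose arrays did. Each run is the 250 bases before the transcription start (RefSeq, GRCm38.p6), in the direction of the gene, and capitals mark ACGTG or GCGTG on either strand (CACGT or CACGC when on the other strand).
Egln3, chr12:54203875-54204124, minus strand: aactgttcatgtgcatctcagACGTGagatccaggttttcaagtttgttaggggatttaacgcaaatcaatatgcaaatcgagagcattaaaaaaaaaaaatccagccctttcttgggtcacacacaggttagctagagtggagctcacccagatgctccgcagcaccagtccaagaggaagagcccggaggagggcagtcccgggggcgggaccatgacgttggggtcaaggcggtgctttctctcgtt
Ankrd37, chr8:45999851-46000100, minus strand: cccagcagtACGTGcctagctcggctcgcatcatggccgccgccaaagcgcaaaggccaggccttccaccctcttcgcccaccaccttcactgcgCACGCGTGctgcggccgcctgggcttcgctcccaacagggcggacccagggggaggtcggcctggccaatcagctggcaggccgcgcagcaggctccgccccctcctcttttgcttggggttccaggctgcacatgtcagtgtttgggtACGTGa
Adm, chr7:110627407-110627656, plus strand: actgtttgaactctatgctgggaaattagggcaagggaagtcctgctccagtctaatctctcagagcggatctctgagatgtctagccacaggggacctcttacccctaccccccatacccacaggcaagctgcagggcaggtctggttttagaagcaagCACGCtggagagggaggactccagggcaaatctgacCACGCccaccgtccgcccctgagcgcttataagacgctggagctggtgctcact
Ddit4, chr10:59951771-59952020, minus strand: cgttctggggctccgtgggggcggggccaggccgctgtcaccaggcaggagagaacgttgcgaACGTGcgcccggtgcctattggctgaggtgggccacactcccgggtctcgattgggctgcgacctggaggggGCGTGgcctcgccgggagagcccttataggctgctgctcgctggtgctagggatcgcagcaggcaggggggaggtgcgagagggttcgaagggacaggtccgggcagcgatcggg
An entry was found for 8 of the 10 members, and Ndrg1 and Angptl4 were not matched. These 8 genes had 9 promoters, of which 8 held at least 1 core and 1 of the 2 of Pdk1 held none. Of 32851 promoters of the same length 38.6% held one (16.6% ACGTG, 28.2% GCGTG). Egln3 had a single ACGTG, beginning 229 bases before the start. Ankrd37 had 4 cores, at 241, 155, 152 and 6 bases before the start, and those at 155 and 152 overlap on opposite strands. Adm had 2 GCGTG cores on the other strand, at 90 and 54 bases. Ddit4 had an ACGTG at 187 bases and a GCGTG at 115 bases, so the core occurred both in members that passed the test and in members that did not. The ACGTG of Bnip3 lies in the palindrome CACGTG, which is also an E-box. These matches describe letters in a window and are not evidence of binding.

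PLX4720 was followed by lower values in 3 of the 9 members tested, and no member rose at an adjusted p under 0.05. Egln3, which 1 of 3 PLX4720 arrays detected, was 6.23-fold, Ndrg1 3.11-fold and Ankrd37 at least 3.17-fold lower than with vehicle. The size for Egln3 depended on the processing. Its log2 fold change ran from -3.10 to -1.41 over 16 other settings, and was smallest without background correction. Among all genes tested 13% passed in this comparison, and 7.51% passed as lower. The median log2 fold change was -0.84 over the 9 members and 0.14 over all genes. After normalization, arrays of the 2 groups did not overlap, with PLX4720 below, for 4 members (the same 3 and Adm), and 15.8% of all genes separated in that way. The number of probes detected moved with the group as well, from 10115 to 12315 on the 8 arrays of the other groups to 13049 to 15130 with PLX4720. In a bulk tumor, fewer cells that express a gene cannot be told apart from less RNA of it per cell.

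**Figure D1:**
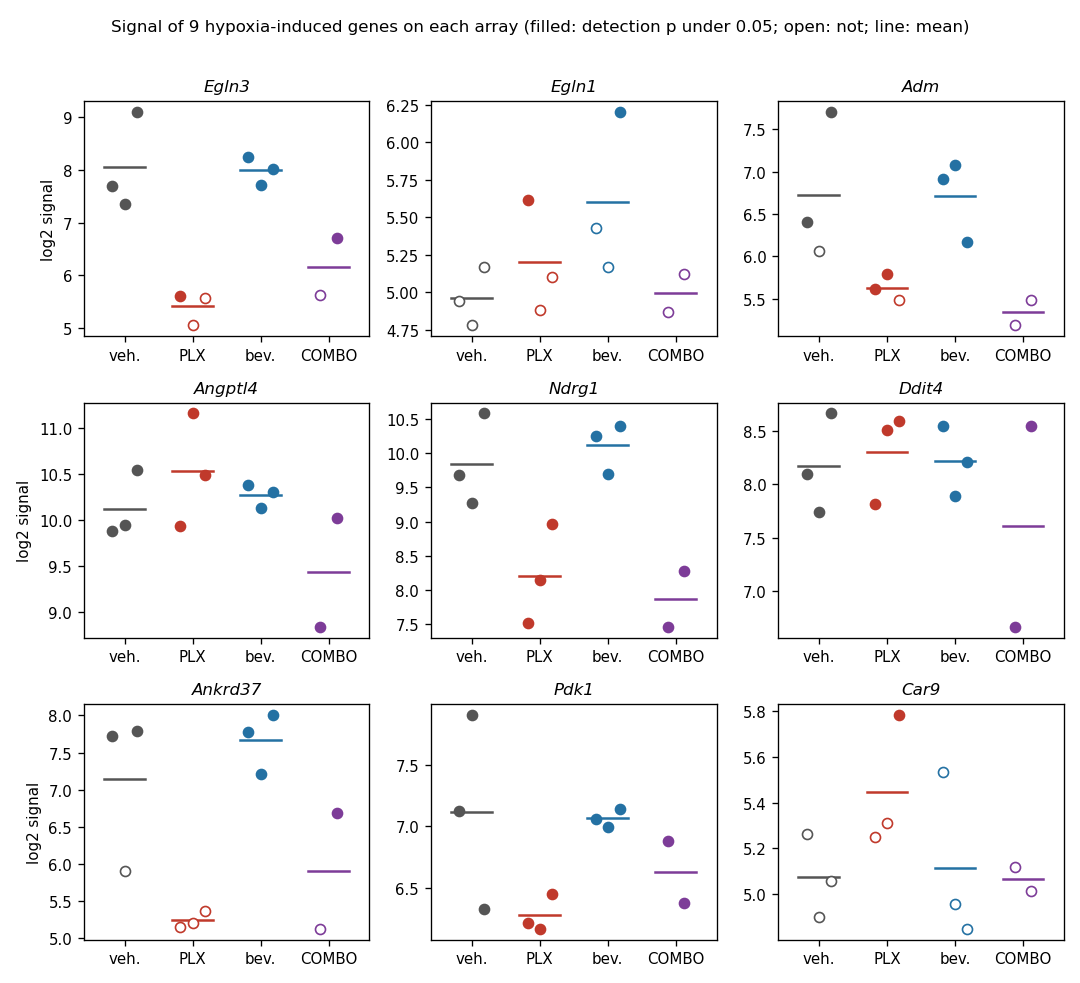
Log2 signal (vertical axis, own scale per gene) of 9 members on each of the 11 arrays, by group; filled points have a detection p under 0.05, open points do not, and lines are group means. Egln3, Ndrg1 and Adm are lower on all PLX4720 and COMBO arrays than on any vehicle array.

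Egln3 (prolyl hydroxylase 3, the family member most strongly induced by hypoxia in many cells) had log2 signals of 7.69, 7.36 and 9.11 with vehicle, 5.61, 5.05 and 5.57 with PLX4720, 8.25, 7.71 and 8.01 with bevacizumab, and 5.62 and 6.71 with COMBO. Vehicle and bevacizumab arrays lay together at the top, and all 5 PLX4720 and COMBO arrays lay below them. Detection was lost along with the signal, from 3 of 3 vehicle and 3 of 3 bevacizumab arrays to 1 of 3 PLX4720 and 1 of 2 COMBO arrays. With PLX4720 the log2 fold change was -2.64 (standard error 0.43, 95% confidence interval -3.58 to -1.70, adjusted p = 0.00468). With bevacizumab it was -0.06 (interval -0.997 to 0.88), and with COMBO -1.88 (standard error 0.48, adjusted p = 0.117).

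Egln1 (prolyl hydroxylase 2, the main oxygen sensor in most cells) was near background. Its log2 signals were 4.94, 4.78 and 5.17 with vehicle, 5.62, 4.88 and 5.11 with PLX4720, 5.43, 5.17 and 6.21 with bevacizumab, and 4.87 and 5.12 with COMBO. A detection p under 0.05 was reached on 1 PLX4720 and 1 bevacizumab array, and its other 2 probes were detected on none, so a comparison of Egln1 with Egln3 rests on a gene close to the limit of the array. With 1 probe per gene, the largest difference of any member under bevacizumab was that of Egln1, with a log2 fold change of 0.64 (interval -0.01 to 1.29, adjusted p = 0.724).

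Ndrg1 (a cytoplasmic protein induced by hypoxia and differentiation) was detected on all 11 arrays. Its log2 signals were 9.69, 9.28 and 10.58 with vehicle, 7.53, 8.15 and 8.97 with PLX4720, 10.26, 9.70 and 10.39 with bevacizumab, and 7.46 and 8.29 with COMBO. On this normalized scale the highest PLX4720 array was still below the lowest vehicle array, and COMBO reached as low as PLX4720. The non-normalized signals of this probe overlapped, at 793.5, 661 and 1079.5 with vehicle and 462.8, 655.8 and 690 with PLX4720. Those of the other kept Ndrg1 probe did not, at 808.4, 696.6 and 1077 against 536.4, 577.4 and 566.5. The decrease of Ndrg1 with PLX4720 passed (-1.64 on the log2 scale with a standard error of 0.42, adjusted p = 0.029), while COMBO gave -1.98 (standard error 0.47, adjusted p = 0.103) and bevacizumab 0.27 (interval -0.65 to 1.19).

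Ddit4 (REDD1, an inhibitor of mTORC1 that glucocorticoids also induce) stayed within a narrow band on most arrays. Its log2 signals were 8.10, 7.74 and 8.67 with vehicle, 7.81, 8.52 and 8.60 with PLX4720, 8.55, 7.89 and 8.21 with bevacizumab, and 6.66 and 8.55 with COMBO. COMBO replicate 1 lay below every other array, COMBO replicate 2 within the vehicle range, and the intervals of its differences from vehicle reached from -0.82 to 1.10 with PLX4720 and from -1.64 to 0.51 with COMBO.

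Ankrd37 (an ankyrin repeat protein whose gene is a HIF-1 target) had log2 signals of 7.73, 5.91 and 7.80 with vehicle, 5.16, 5.21 and 5.37 with PLX4720, 7.78, 7.21 and 8.01 with bevacizumab, and 5.13 and 6.69 with COMBO. No PLX4720 array detected it, against 2 of 3 vehicle, 3 of 3 bevacizumab and 1 of 2 COMBO arrays. With the PLX4720 arrays raised to the lowest signal that each of them detected, it was at least 3.17-fold lower than with vehicle (adjusted p = 0.0313). The fitted log2 fold changes were -1.90 (standard error 0.50) with PLX4720, 0.52 (interval -0.57 to 1.61) with bevacizumab and -1.24 (adjusted p = 0.353) with COMBO.

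Adm (adrenomedullin, a vasodilator peptide) had log2 signals of 6.40, 6.07 and 7.71 with vehicle, 5.62, 5.79 and 5.49 with PLX4720, 6.92, 7.08 and 6.17 with bevacizumab, and 5.19 and 5.49 with COMBO. On this normalized scale all PLX4720 and COMBO arrays lay below all vehicle and bevacizumab arrays. The non-normalized signals of vehicle (165.2, 181.2 and 224.5) and PLX4720 (163.1, 192.1 and 146.9) overlapped, and 2 of 3 arrays of each of these groups detected Adm. The log2 fold change with PLX4720 was -1.10 (standard error 0.39, adjusted p = 0.0824), which did not pass, and with bevacizumab it was -0.01 (interval -0.86 to 0.84). No COMBO array detected Adm, and it was at least 1.96-fold lower there than with vehicle (adjusted p = 0.184). Angptl4, the other secreted member, which inhibits lipoprotein lipase, was detected everywhere and had no such pattern. Its log2 signals were 9.88, 9.95 and 10.55 with vehicle, 9.94, 11.17 and 10.49 with PLX4720, 10.39, 10.13 and 10.31 with bevacizumab, and 8.83 and 10.03 with COMBO.

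Pdk1 (a kinase that switches off pyruvate dehydrogenase and so keeps pyruvate from the mitochondria) had log2 signals of 7.12, 7.91 and 6.32 with vehicle, 6.21, 6.16 and 6.45 with PLX4720, 7.06, 6.99 and 7.14 with bevacizumab, and 6.88 and 6.38 with COMBO. Vehicle replicate 3, the highest vehicle array for Egln3, Ndrg1, Ankrd37 and Adm, was the lowest for Pdk1 and lay within the PLX4720 range. The log2 fold change with PLX4720 was -0.84 (standard error 0.34, adjusted p = 0.116), and it passed without that array (-1.24, adjusted p = 0.0384). Of the 11 fits that left out 1 array, this was the only 1 in which Pdk1 passed. It passed in none of the 16 other settings, where its value ran from -0.997 to -0.016. Car9 (carbonic anhydrase 9, a membrane enzyme that acidifies the cell's surroundings) had log2 signals between 4.85 and 5.78 over the 11 arrays, and each of its 2 kept probes was detected on 1 array. A difference in Car9 was not detectable at this signal.

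**Figure D2:**
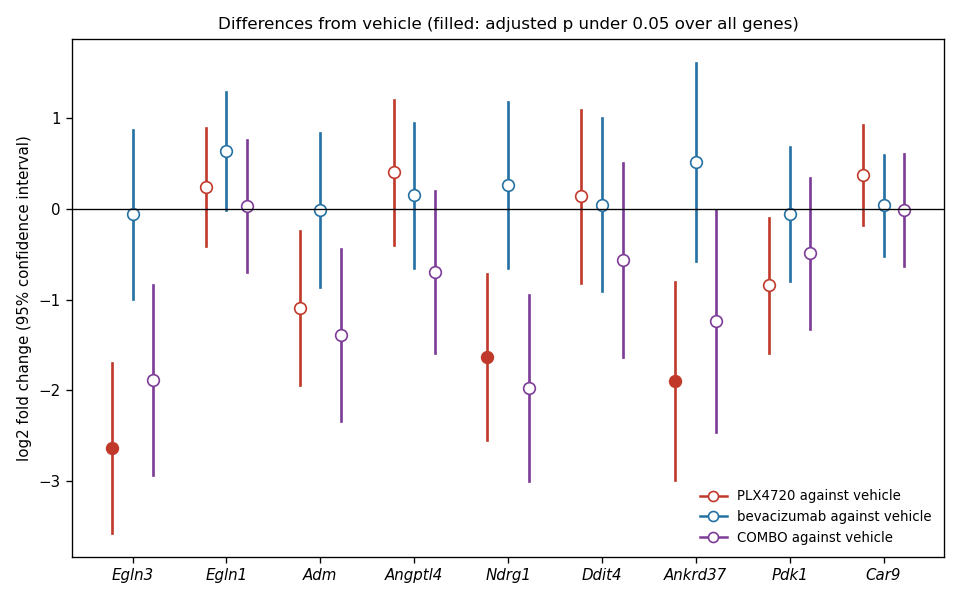
Log2 fold change from vehicle with its 95% confidence interval (vertical axis) for 9 members, with PLX4720, bevacizumab and COMBO; filled points have an adjusted p under 0.05. Only Egln3, Ndrg1 and Ankrd37 with PLX4720 are filled.

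Egln3 and Ndrg1 each had a second kept probe, and the pairs did not behave alike. The second Ndrg1 probe gave a log2 fold change of -1.78 with PLX4720 (standard error 0.34, adjusted p = 0.0103 over all probes) and -1.94 with COMBO (adjusted p = 0.0719), close to the first. The second Egln3 probe, which the annotation ties to a cDNA clone and not to the RefSeq transcript, was weaker, with log2 signals between 5.05 and 6.62. It was detected on 8 arrays, as was the first. The second Egln3 probe gave -0.37 with PLX4720 (standard error 0.31, interval -1.05 to 0.31, adjusted p = 0.434), -0.78 with bevacizumab (adjusted p = 0.68) and -0.37 with COMBO (adjusted p = 0.715). Another Egln3 probe, tied to the same RefSeq transcript as the first, was detected on no array and was not kept. Its log2 signals lay between 4.68 and 4.955. The decrease of Egln3 therefore rests on the first probe alone. The interval of the first Egln3 probe with PLX4720, -3.57 to -1.70 in that fit, does not reach that of the second.

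**Figure D3:**
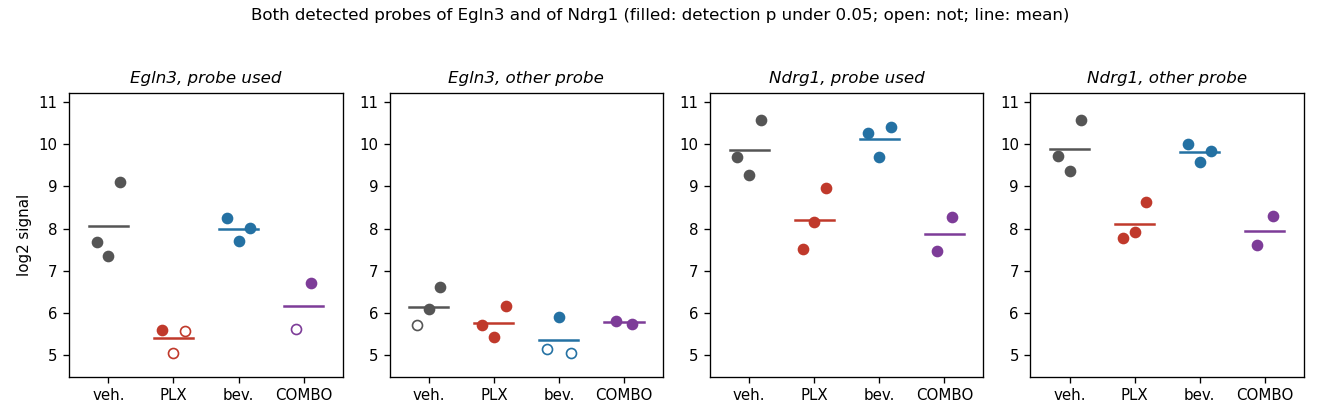
Log2 signal (vertical axis) of both kept probes of Egln3 and of Ndrg1 on each array; filled points have a detection p under 0.05, open points do not, and lines are group means. Both Ndrg1 probes drop under PLX4720 and COMBO, while the second Egln3 probe stays between 5.05 and 6.62.

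The choice of scaling altered the size of the members' differences with PLX4720, and for Ndrg1, Adm, Angptl4 and Ddit4 whether they passed. Only Egln1 and Car9, both near background, changed sign. On the non-normalized scale, Angptl4 had signals of 899, 999 and 1058 with vehicle and of 1959, 3935 and 1764 with PLX4720, and Ddit4 had 315, 295 and 347 with vehicle and 549, 801 and 559 with PLX4720. When arrays were only centered on their median, the median of all genes moved to 0.76 on the log2 scale for PLX4720 against vehicle. Angptl4 (1.36, adjusted p = 0.0124) and Ddit4 (1.26, adjusted p = 0.0345) then passed as higher, and lay 0.59 and 0.50 above that median. In the same setting Egln3 (-2.09, adjusted p = 0.00248) and Ankrd37 (-1.48, adjusted p = 0.0183) passed as lower, and Ndrg1 (-0.58, adjusted p = 0.235), 1.34 below the median of all genes, did not. Among all genes 4791 then passed as higher and 209 as lower, against 602 and 821 after quantile normalization. Centering on 8 housekeeping genes turned Egln1 (-0.55) and Car9 (-0.35) to negative values, and Adm passed there (-1.31, adjusted p = 0.0302) and after cyclic loess (-1.12, adjusted p = 0.0412). Egln3 and Ankrd37 passed as lower in each of the 5 other scalings tried.

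**Figure D4:**
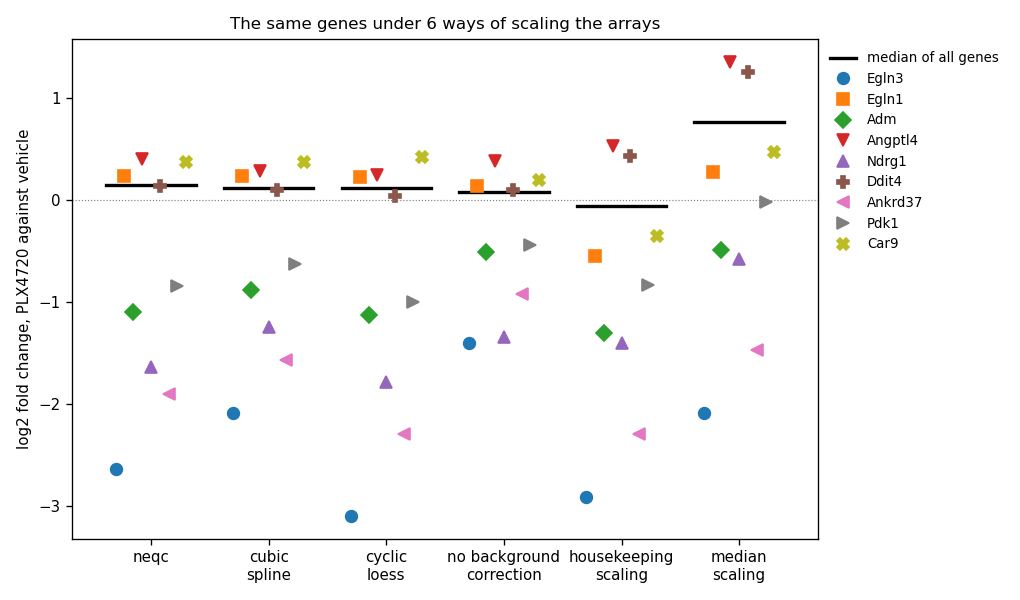
Log2 fold change of 9 members with PLX4720 against vehicle (vertical axis) under 6 ways of scaling the arrays (horizontal axis); symbols are genes and black bars are the median of all genes. Egln3 is the lowest gene in all 6, while Angptl4 and Ddit4 rise to 1.36 and 1.26 with arrays centered on their medians, a setting in which all genes had a median of 0.76.

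Skeletal muscle markers were unevenly spread over the arrays. Their mean log2 signal, over 16 of 18 markers and set against the vehicle mean, ranged from -0.56 to 0.98 on vehicle arrays, from -0.48 to 6.49 with PLX4720, from -0.50 to 3.56 with bevacizumab, and from 0.96 to 4.02 with COMBO. Without the 3 arrays of highest muscle signal (PLX4720 replicate 1, bevacizumab replicate 2 and COMBO replicate 1) Egln3 still fell with PLX4720 (log2 fold change -2.74, adjusted p = 0.0274). Ndrg1 (-1.29, adjusted p = 0.12) and Ankrd37 (-1.86, adjusted p = 0.0891) did not pass there. The mean of 14 of 15 endothelial markers ranged from -0.08 to 0.04 on vehicle arrays, from -1.50 to -0.65 with PLX4720, from -0.86 to -0.44 with bevacizumab and from -1.84 to -1.45 with COMBO. Endothelial markers were thus lower than with vehicle on every treated array, bevacizumab included, where the median difference of the members was 0.05. Macrophage markers (10 of 11) were grouped as Egln3, Ndrg1 and Adm were, in the opposite direction. Their mean ranged from -0.34 to 0.31 on vehicle arrays and from -0.025 to 0.083 with bevacizumab, against 0.42 to 0.82 with PLX4720 and 0.50 to 0.73 with COMBO. Both COMBO arrays also lay below all vehicle arrays for pericyte markers (8 of 8, -0.94 and -0.61, against -0.35 to 0.32) and fibroblast markers (9 of 10, -0.90 and -0.21, against -0.17 to 0.33), and above them for adipocyte markers (5 of 9, 1.06 and 2.22, against -0.64 to 0.39). The part of these cell types in the members' values was not tested. Ndrg1 and Ankrd37 also failed to pass when any one of vehicle replicates 1 and 3 or PLX4720 replicates 1 and 2 was left out. In these fits the log2 fold change of Ndrg1 ran from -1.72 to -1.27 (adjusted p from 0.055 to 0.0994) and that of Ankrd37 from -1.88 to -1.58 (adjusted p from 0.0593 to 0.108). Egln3 passed without each array in turn.

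With bevacizumab none of the 9 members passed limma's test against vehicle. With 1 probe per gene none had an unadjusted p under 0.05 either, where 7.01% of all genes did, whereas the second Egln3 probe did (-0.78, interval -1.46 to -0.10, adjusted p = 0.68 over all probes). The adjusted test called 0.00915% of all genes. The median log2 fold change of the members was 0.05, and their values ranged from -0.06 for Egln3 to 0.64 for Egln1. Egln1 was the 1 member whose bevacizumab arrays all lay above the vehicle arrays, and 6.6% of all genes did. The intervals do not exclude a change of 1 on the log2 scale for Egln1, Ndrg1, Ankrd37 and Ddit4.

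COMBO gave lower values than vehicle in 8 of 9 members, with a median log2 fold change of -0.69 against 0.008 over all genes. None passed the adjusted test, which called 0.366% of all genes. At an unadjusted p under 0.05, 4 members passed, against 14% of all genes. Egln3, Ndrg1 and Adm met the methods' looser threshold, a change of 1 or more on the log2 scale in either direction at an unadjusted p under 0.01, which 2.04% of all genes met as lower. The arrays of the same 3 members did not overlap, with COMBO below vehicle, and 19.2% of all genes separated in that way. The 2 COMBO arrays differed from each other: replicate 1 was the lower one for Egln3, Ndrg1, Ankrd37, Adm, Ddit4 and Angptl4, and 1 of 9 members lay above its vehicle mean there, against 2 of 9 in replicate 2. Replicate 1 also carried the higher muscle signal, 4.02 against 0.96.

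Adding bevacizumab to PLX4720 changed no member past the adjusted test, which called 0.00915% of all genes. Angptl4 was the only member below an unadjusted p of 0.05, against 14% of all genes (log2 fold change -1.10, adjusted p = 0.253). Egln3 was 0.75 higher on the log2 scale with COMBO than with PLX4720 (interval -0.29 to 1.80), with no overlap of arrays, as in 14.5% of all genes, and Car9 was the 1 member with COMBO arrays all below PLX4720 arrays, as in 17.2%. Adding PLX4720 to bevacizumab gave 9 of 9 members a lower mean, with a median log2 fold change of -0.84 against 0.0135 over all genes. None passed the adjusted test, which called 0.0457% of all genes. The differences were -2.24 for Ndrg1 (adjusted p = 0.13), -1.83 for Egln3 (adjusted p = 0.236), -1.75 for Ankrd37 (adjusted p = 0.322) and -1.38 for Adm (adjusted p = 0.311). These 4 met the threshold of the methods, as 1.46% of all genes did as lower, and an unadjusted p under 0.05, as 9.51% did. For 7 members all COMBO arrays lay below all bevacizumab arrays, against 13.5% of all genes. The non-additive effect of the 2 drugs passed for no member and for 0.00915% of all genes, and Angptl4 was the only member below an unadjusted p of 0.05, against 14% of all genes (-1.25, interval -2.45 to -0.05, adjusted p = 0.335).

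Over the 4 groups, limma's F test called 4 of 9 members at an adjusted p under 0.1, where it called 10.6% of all genes, and 3 at 0.05, where it called 4.38%. They were Egln3 (adjusted p = 0.0123), Ndrg1 (0.026), Ankrd37 (0.0445) and Adm (0.096). In each of them vehicle and bevacizumab had the 2 higher means, which did not differ beyond their intervals, and PLX4720 and COMBO the 2 lower ones, which did not differ beyond theirs. The other 5 members (Egln1, Car9, Pdk1, Ddit4 and Angptl4) did not pass.

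Other genes of the pathway were counted from 3 lists. Of 15 genes of the HIF machinery 13 were tested, and with PLX4720 1 fell and 1 rose, against 7.51% lower and 5.51% higher among all genes. Cited2, which competes with HIF for the coactivators CBP and p300, had log2 signals of 9.62, 11.14 and 10.50 with vehicle, 5.90, 7.32 and 6.73 with PLX4720, 9.91, 9.04 and 8.97 with bevacizumab and 8.06 and 7.56 with COMBO. Cited2 fell by 3.77 on the log2 scale with PLX4720 (standard error 0.44, adjusted p = 0.00105). With COMBO the difference was -2.61 (adjusted p = 0.0501). Elob, a subunit of the von Hippel-Lindau ubiquitin ligase, rose (0.86, standard error 0.21, adjusted p = 0.0257), and this call was lost without any one vehicle array or without PLX4720 replicate 3.

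Of 21 other hypoxia-induced genes 15 were tested, and 5 fell and none rose with PLX4720, with a median log2 fold change of -0.46 (7.51% of all genes fell, with a median over all genes of 0.14). P4ha1 and P4ha2, subunits of the collagen prolyl hydroxylase, fell by 2.39 (adjusted p = 0.00144) and by 1.62 (adjusted p = 0.0243) on the log2 scale. The MYC antagonist Mxi1 fell by 1.86 (adjusted p = 0.00312), the angiogenic factor Vegfa by 1.79 (adjusted p = 0.0337) and the heme oxygenase Hmox1 by 1.16 (adjusted p = 0.0477). Hmox1 passed in 1 of the 11 fits that left out 1 array. P4ha1 had log2 signals of 9.61, 9.62 and 10.34 with vehicle, 7.24, 8.02 and 7.13 with PLX4720, 9.08, 9.82 and 9.44 with bevacizumab and 8.88 and 8.85 with COMBO, so that COMBO lay between PLX4720 and the other groups. Its difference between COMBO and PLX4720 was 1.40 (adjusted p = 0.128).

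Of 19 genes of glucose uptake and glycolysis 16 were tested, and 5 fell and none rose with PLX4720, with a median log2 fold change of -0.58 (7.51% lower and a median of 0.14 over all genes). The glucose transporter Slc2a1 had log2 signals of 10.35, 10.65 and 10.99 with vehicle, 7.97, 8.25 and 8.22 with PLX4720, 10.62, 10.25 and 10.66 with bevacizumab and 9.08 and 9.21 with COMBO. It fell with PLX4720 (-2.52, standard error 0.24, adjusted p = 0.000424) and was the only gene of the 3 lists that passed with COMBO (-1.52, standard error 0.26, adjusted p = 0.0347), as 0.366% of all genes did, and where it was lost in 6 of the 11 fits without 1 array. The other 4 were the phosphofructokinase Pfkp (-3.33, adjusted p = 0.0239) and the phosphoglycerate kinase Pgk1 (-1.09, adjusted p = 0.0304), the mutase Pgam1 (-1.33, adjusted p = 0.00987) and the transporter Slc2a3 (-1.23, adjusted p = 0.0195). Pfkp spanned 6.39 to 11.01 over the PLX4720 arrays and was lowest on replicate 1, the array of highest muscle signal. With bevacizumab no gene of the 3 lists passed, against 0.00915% of all genes. All 12 genes called with PLX4720 kept their direction in the 5 other scalings, 5 of them passed without each array in turn, and 5 passed without the 3 arrays of highest muscle signal.

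**Figure D5:**
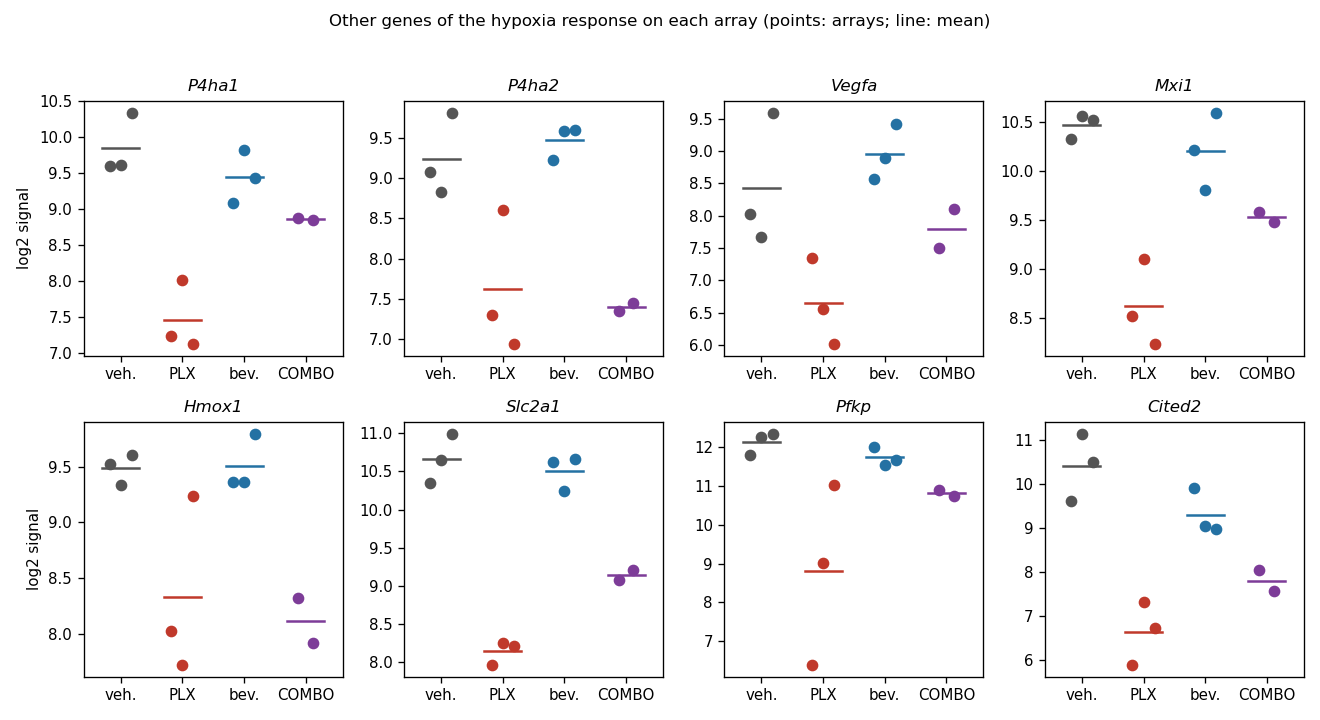
Log2 signal (vertical axis, own scale per gene) of 8 of the 12 called genes of the 3 lists on each of the 11 arrays, by group; points are arrays and lines are group means. All 8 are lower on the PLX4720 arrays than on any vehicle array, and Slc2a1, P4ha1, Mxi1 and Cited2 lie in between with COMBO.

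The genes outside the list whose profile lay closest to that of the members were Eif4ebp1 (a translation repressor), Slc6a8 (the creatine transporter), Tpm2 (a tropomyosin), Fam162a, Fblim1, Prrc1, Phka1 (a phosphorylase kinase subunit) and Blcap. Likeness was the mean absolute difference between the centered log2 signal of a gene and the median centered signal of the 9 members over the 11 arrays, and it ranged from 0.18 for Eif4ebp1 to 0.24 for Blcap. Eif4ebp1, the closest, had means of 9.80 with vehicle, 9.33 with PLX4720, 10.01 with bevacizumab and 9.24 with COMBO. Fam162a, with a larger difference between PLX4720 and vehicle, had means of 10.01 with vehicle, 9.03 with PLX4720, 9.94 with bevacizumab and 8.75 with COMBO. These are descriptions of profiles over the same arrays, which share their muscle signal and their depth of detection.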

How the data were processed

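Total RNA of 11 tumors was hybridized to Illumina mouse bead arrays, as biological replicates per the study's methods, and nothing in the labels shows how the mice were housed or processed together. Non-normalized intensities were deposited by the authors for every probe as GenomeStudio 2011.01 gave them, without a log transform. The detection p-value deposited beside each intensity was computed by the authors' software from negative control beads. The authors also deposited intensities after cubic spline normalization, which were put on the log2 scale and used as an alternative.

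The log2 values in the text were computed here and not by the authors: neqc (limma 3.58.1, R 4.3.3) corrected the background of the non-normalized intensities and then equalized their quantiles (offset 16, with the negative control distribution estimated through the detection p-values). Quantile normalization gives every array the same distribution, so that a shift shared by most genes is removed. Of 45281 probes, 34885 have 1 gene symbol in the platform annotation, 18 several and 10378 none; only probes with 1 symbol were named. Probes detected at a p under 0.05 on at least 1 array were kept, and each gene is represented by its probe of highest mean signal. No probe's level was set against that of another gene. Precision is limited by how many arrays a group has.

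All 11 arrays were fitted together in limma with 1 mean per group (7 residual and 4.92 prior degrees of freedom), so that the 2 COMBO arrays are assumed to vary like the other groups. Comparisons with vehicle share its 3 arrays. Adjusted p-values follow Benjamini-Hochberg over 10933 genes, or over 16217 probes where probes are compared. Where a gene was undetected on all arrays of a group, a lower bound of its fold ("at least") was computed by setting each such array to the lowest signal it detected, if that was higher.

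The members, the gene lists and the tests were chosen with earlier results of these data known. Named are the members, genes of the 3 hypoxia lists that passed against vehicle (at most 6 of the largest per list), and the 8 genes of closest profile. The fit was tested on simulated data with known changes. At an adjusted p under 0.05 it recovered 20% of log2 changes of 1 with PLX4720, 27% with bevacizumab and 11% with COMBO. For log2 changes of 2 it recovered 86%, 85% and 68%. A member that did not pass can therefore still differ. Promoter sequences are from RefSeq (GRCm38.p6), and the 50 transcribed bases of each entry were not used. Alternatives were other scalings, filters, probe choices, variance models, a replicate block, the muscle signal, only the groups compared, the methods' threshold and each array left out in turn. The human arrays of the same tumors were not analysed here.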

Additional observations from a re-analysis of the deposited data

How the results depend on the processing

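The count of 3 members lower with PLX4720 fell to 1 with no filter on detection, with the muscle signal as a covariate, without the 3 arrays of highest muscle signal and with only the groups compared, and ranged from 1 to 3 with 1 array left out. Egln3 was past the threshold in each of the 16 other settings and 11 left-out fits, Ndrg1 and Ankrd37 each in 11 of 16 and 7 of 11. With COMBO against vehicle the count of 0 became 2 with array weights (Egln3 and Ndrg1), where 435 of all 10933 genes passed. At the methods' threshold it became 3, against 2.04% of all genes as lower. With COMBO against PLX4720 the count became 1 with median scaling (Angptl4), where 1674 of all genes passed. With COMBO against bevacizumab it became 1 with array weights (Ndrg1), where 51 of all genes passed. At the methods' threshold it became 4 there, against 1.46% of all genes as lower. The 4 members past the F test became 2 with the muscle covariate, 0 without the 3 arrays of highest muscle signal, and 2 to 4 with 1 array left out. For these changes the cause was not tested. Some of these settings also bring fewer arrays or a larger number of genes, and the part of either in the changes was not tested. Bevacizumab against vehicle and the non-additive effect kept a count of 0 throughout. Of 404 values of single members with an unadjusted p under 0.05, none changed its sign. Over all genes, the count called with PLX4720 ran from 344 without the 3 arrays of highest muscle signal to 5000 with median scaling.

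Whether arrays that share a replicate number form pairs could not be settled. Correlations of their deviations ran from -0.24 to 0.26 over 15 pairs, 2 of them over 0.1. Over 30 pairs of unlike number they ran from -0.35 to 0.43. Of the 11 arrays, 7 correlated best with one of their own number. The deviations of the 2 COMBO arrays are mirror images of each other, which limits this check. With a replicate block the count stayed at 3 with PLX4720 and at 0 in the other comparisons, and was 3 in place of 4 in the F test. Signal near background limits Egln1, Car9 and Bnip3, for which neither a change nor its absence could be shown.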
